A study of Homo sapiens with 9 samples.

Results

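The abundance of each RNA was compared between PC9 cells transfected with siALKBH5#1, a small interfering RNA against the m6A demethylase ALKBH5, and PC9 cells transfected with the non-targeting control siNC. The members are arrays, chosen by their labels: the 3 siALKBH5#1 and the 3 siNC arrays, 6 of the 9 in the series. The other 3 arrays, of a second siRNA named siALKBH5#3, appear below only as values set side by side.

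N6-methyladenosine (m6A) is a methyl mark that METTL3, METTL14 and WTAP place on adenosines of RNA and that the demethylases ALKBH5 and FTO can remove. Reader proteins bind marked RNA: YTHDF proteins are known for speeding its decay and IGF2BP proteins for protecting it, so a change in the mark can go with more or less of a transcript. In lung adenocarcinoma, ALKBH5 has been studied for its part in the growth and spread of tumor cells.

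The study asked how loss of ALKBH5 changes the m6A of RNAs in PC9, an established line of human lung adenocarcinoma. All 9 samples were PC9 cells, cultured for 24 h, transfected with 15 nM of 1 siRNA by lipofection and collected 96 h after transfection. The siNC cells received a Silencer Select negative control, and the siALKBH5#1 and siALKBH5#3 cells received predesigned Silencer Select siRNAs. Each group had 3 biological replicates with 1 array each, and this number limits the precision of each value below.

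On each array, unfragmented total RNA had been split with an antibody against m6A into a bound part (IP, red) and an unbound part (Sup, green). The sum of both parts stands for the amount of the RNA, whether methylated or not, and log2(IP + Sup) is called abundance here. An equal amount of spike-in RNA had been added to both parts. Each channel of each array was scaled by its average over 13 spike-in probes on the log2 scale, those of 102 whose IP and Sup signals both stood well above background on each of the 9 arrays. The spike-in RNA was added to RNA and not to cells, so an amount of RNA per cell cannot be read from these values. Of 60541 RNA probes, 45247 (74.7%) had a Sup signal well above background on all 3 arrays of at least 1 group and were tested. Of these, 40160 were above background on all 6 arrays, 165 were tested through the siALKBH5#1 arrays alone and 4922 through the siNC arrays alone. No RNA spot was saturated.

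The arrays differed in brightness, and siALKBH5#1 replicate 3 stood apart. The mean log2 Sup signal of the spike-in probes was 9.27, 8.57 and 12.16 on siALKBH5#1 replicates 1, 2 and 3 and 9.32, 9.63 and 10.50 on siNC replicates 1, 2 and 3. In the IP channel it was 7.61, 6.75 and 11.80 for siALKBH5#1 and 7.57, 8.55 and 10.50 for siNC. The spike-in RNA was thus brightest on replicate 3 of each group, and most of all on that of siALKBH5#1. The RNAs themselves did not brighten by as much: the median log2 Sup signal of the 20020 RNAs above background in both channels throughout was 7.72, 7.23 and 9.63 for siALKBH5#1 and 7.81, 7.70 and 8.38 for siNC. Across the 13 spike-in probes, the log2 Sup signal of siALKBH5#1 replicate 3 minus the mean of replicates 1 and 2 ran from 0.65 to 5.33, and the IP signal from 0.08 to 7.30, so the probes did not shift by a common factor. It also had 13996 RNA spots with a quality mark of the scanner software, against 1743 to 5080 on the other 5 arrays.

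After scaling, the median abundance of the tested RNAs was -2.82, -2.74 and -5.32 for siALKBH5#1 replicates 1, 2 and 3 and -2.87, -3.57 and -4.27 for siNC, in log2 units relative to the spike-in mean. siALKBH5#1 replicate 3 lay lowest of the 6, siNC replicate 3 next, and the groups overlapped. The mean of the siALKBH5#1 arrays was -3.63 ± 1.47 (SD, n = 3), and that of the siNC arrays was -3.57 ± 0.70 (SD, n = 3). The median change was -0.06 (two-sided exact permutation test, P = 1; the smallest P that 3 against 3 allows is 0.1). Without siALKBH5#1 replicate 3 the median change was 0.79, and without replicate 3 of both groups it was 0.44. In the first case the siALKBH5#1 arrays left lay above all siNC arrays (two-sided exact permutation test, P = 0.2). A total change in RNA against the spike-in was therefore not resolved at this spread. Leaving out siALKBH5#1 replicate 3 moved it by more than any other single array did, and leaving out siNC replicate 2 left it at -0.06. For this reason each RNA's abundance is given below also relative to the median of its own array, which takes that shift away. It does not take away the balance of IP to Sup in the sum, which the spike-in means of both channels set on each array. In the IP channel the median log2 signal of the same bright RNAs was 6.55, 5.69 and 8.76 for siALKBH5#1 and 6.33, 6.72 and 8.18 for siNC. How far this balance bears on the values relative to the medians was not tested.

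**Figure D1:**
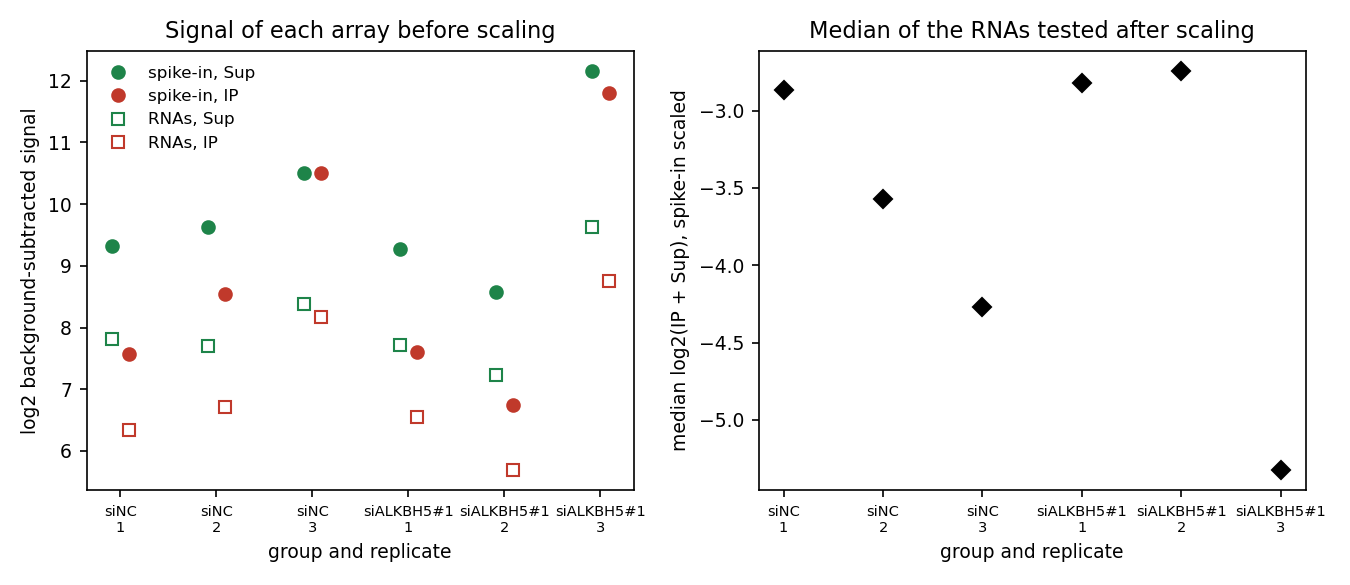
Left, mean log2 signal of 13 spike-in probes (filled circles) and median log2 signal of the RNAs bright on all arrays (open squares) in the Sup (green) and IP (red) channels of the 6 arrays, before scaling. Right, median log2(IP + Sup) of the 45247 tested RNAs after scaling by the spike-in probes, lowest at -5.32 on siALKBH5#1 replicate 3.

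The pattern across RNAs also set siALKBH5#1 replicate 3 apart. Across the tested RNAs, its abundance correlated with siALKBH5#1 replicates 1 and 2 at 0.921 and with the siNC arrays at 0.934 to 0.971. Replicates 1 and 2 of siALKBH5#1 correlated with each other at 0.980, and the siNC arrays with each other at 0.976 to 0.989. These are values across RNAs within a cell line, where RNAs are not independent replicates. The deviation of replicate 3 from the mean of replicates 1 and 2, taken relative to the array medians, had an SD of 1.47 log2 over RNAs with siALKBH5#1 and 0.65 with siNC. It exceeded 1 log2 for 39.8% of RNAs with siALKBH5#1 and 13.9% with siNC. The deviation had the same sign in both groups for 68.9% of the 45247 RNAs. How replicate 3 of both groups came to deviate was not tested.

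Per the file headers, siALKBH5#1 replicate 1 was recorded in a scan of its own, and the other 5 arrays compared, with the 3 siALKBH5#3 arrays, in another. A scan is not a batch of cells or RNA. Without siALKBH5#1 replicate 1, limma called 0 RNAs in either direction on both scales, as with all 6 arrays.

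With all 6 arrays and spike-in scaling, limma called 0 RNAs higher (0%) and 0 lower (0%) of the 45247 tested at an adjusted P under 0.05, and the smallest adjusted P was 1.00. At an unadjusted P under 0.05 there were 43, and the study's own unpaired test per RNA gave 455 at that limit and 0 after adjustment. The median standard error of a change was 0.86 log2 on this scale. The study's threshold asked for a change of over 1.5-fold in either direction together with an unadjusted P under 0.01. In limma it was passed by 1 RNA higher (0.00221%) and 1 lower (0.00221%), and neither has a gene name. Among the 40160 RNAs with Sup above background on all 6 arrays, 0 higher and 1 lower passed it. With the study's own test over all 45247 RNAs, the threshold was passed by 71 RNAs higher and 11 lower.

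Relative to the array medians, the median standard error was 0.37 log2, and limma again called 0 RNAs higher (0%) and 0 lower (0%), with a smallest adjusted P of 0.572. At an unadjusted P under 0.05 there were 1758. The study's threshold was passed by 143 RNAs higher (0.316%) and 211 lower (0.466%), all with groups that did not overlap. Among the 40160 RNAs with Sup above background on all 6 arrays it was passed by 137 higher and 152 lower, so the excess of lower RNAs was smaller there. The balance turned with the signal used: the Sup channel alone gave 271 higher and 104 lower, the IP channel alone 33 and 127, and the sum without spike-in scaling 174 and 146, each relative to its array medians, and quantile normalization gave 254 and 198. The counts also turned on single arrays. Leaving out siALKBH5#1 replicate 1, 2 or 3 gave 97, 70 and 527 higher and 248, 134 and 1079 lower, and leaving out siNC replicate 1, 2 or 3 gave 49, 41 and 69 higher and 59, 62 and 93 lower. In 5 of the higher and 5 of the lower, the Sup signal was not above background on any array of the other group. Over all tested RNAs, groups without overlap were found for 2058 higher (4.55%) and 2632 lower (5.82%) on this scale. On the spike-in scale they were found for 652 higher (1.44%) and 303 lower (0.67%). About the median, changes ran from -0.70 log2 at the lowest 5% to 0.66 at the highest 5% with all 6 arrays, from -0.99 to 0.76 without replicate 3 of both groups and from -1.18 to 0.78 without siALKBH5#1 replicate 3. Changes over 2-fold relative to the median were seen for 519 RNAs higher and 731 lower, which is 2.76% of those tested. These were 993 and 2216 (7.09%) without replicate 3 of both groups and 1062 and 3312 (9.67%) without siALKBH5#1 replicate 3. The no-overlap and 2-fold counts hold the 4922 RNAs tested through the siNC arrays alone and the 165 tested through the siALKBH5#1 arrays alone. The excess of lower RNAs in these counts relative to the medians is therefore not independent of that filter. On the spike-in scale the no-overlap counts had more RNAs higher than lower.

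The calls turned on siALKBH5#1 replicate 3. Without replicate 3 of both groups, limma called 219 RNAs higher (0.484%) and 110 lower (0.243%) on the spike-in scale. Without siALKBH5#1 replicate 3 alone, it called 216 higher (0.477%) and 73 lower (0.161%). The RNAs called both ways numbered 168 higher, which is 77.8% of the 216 and 76.7% of the 219, and 66 lower, which is 90.4% of the 73 and 60.0% of the 110. Both fits use replicates 1 and 2 of each group, so some of this sharing is built in. With all 6 arrays and relative to the medians, the groups did not overlap for 101 of the 168 higher and 0 of the 66 lower. In both fits limma gave every RNA the same standard error, 0.51 log2 without replicate 3 of both groups and 0.59 without that of siALKBH5#1, so the calls rank RNAs by the size of change alone. Relative to the array medians, limma called 0 RNAs in either direction both without siALKBH5#1 replicate 3, with a smallest adjusted P of 0.249, and without replicate 3 of both groups, where it was 0.391. Without replicate 3 of both groups, the study's threshold was passed by 1214 RNAs higher (2.68%) and 379 lower (0.838%) on the spike-in scale, and by 415 higher (0.917%) and 730 lower (1.61%) relative to the medians. Without siALKBH5#1 replicate 3 alone, it was passed by 1822 higher (4.03%) and 261 lower (0.577%) on the spike-in scale. The side that held more RNAs thus changed with the scale.

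**Figure D2:**
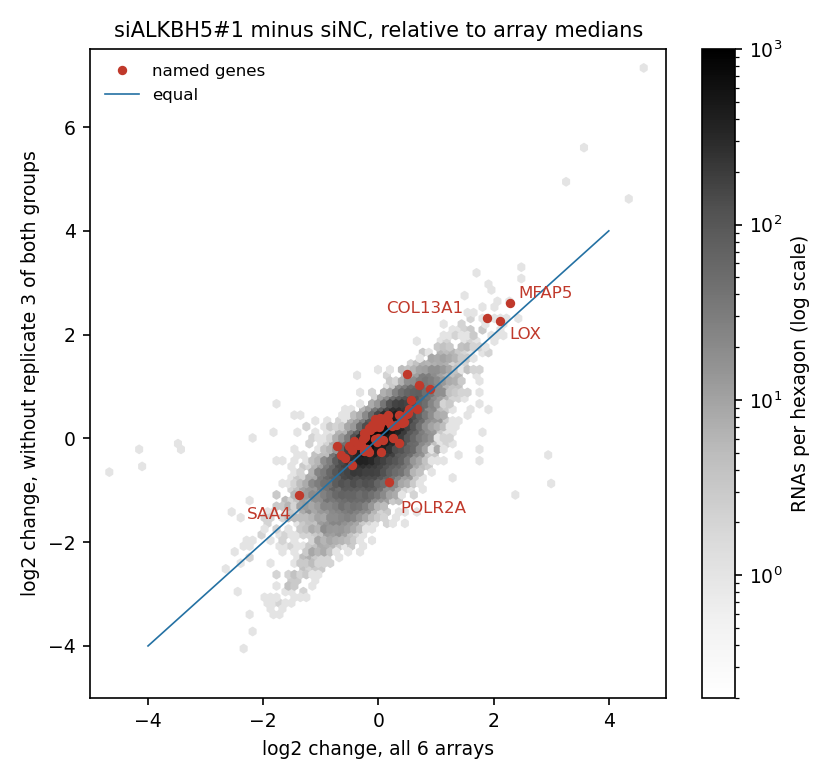
Log2 change of each of the 45247 tested RNAs (siALKBH5#1 minus siNC, relative to the array medians) with all 6 arrays (x axis) and without replicate 3 of both groups (y axis). Grey hexagons count RNAs on a log scale, red points are the 58 named genes, and the line marks equal change. LOX, COL13A1 and MFAP5 lie far from 0 both ways, and POLR2A changes sign.

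Gene names could be given to 61 RNA probes. Of these, 50 carry a RefSeq accession in the files and are spotted 10 times on each array. The other 11 belong to the study's list of hypermethylated genes, which the study chose on these same arrays. Named genes tested numbered 58, of which 47 carry an accession. The 3 not tested had no Sup signal well above background on these 6 arrays: CFTR, a chloride channel of epithelia, ZAP70, a kinase of T cells, and CD69, an activation marker of leukocytes. Neither ALKBH5 nor any marker of lung epithelium is among the named probes, so the depth of the knockdown and the identity of the cells were not analysed here. Of 211 genes in 18 lists of pathways and cell types, 4 are named: CCNA2, CENPE and KIF20A among genes of the G2 and M phases, and MFAP5 among genes of the extracellular matrix. Of these 4, limma called 0 with all 6 arrays. Over the 47 genes the median SD between the spots of a probe was 0.08 to 0.18 log2 per array.

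The named genes with the largest change above 0 were MFAP5, LOX and COL13A1, and limma called none of them with all 6 arrays. LOX, the enzyme that oxidizes lysines so that collagen and elastin can be crosslinked, had an abundance relative to the array median of 2.55, 2.68 and 2.07 log2 on siALKBH5#1 replicates 1, 2 and 3 and of 0.49, 0.21 and 0.24 on the siNC replicates. All 3 siALKBH5#1 arrays lay above all 3 siNC arrays, and the lowest of them was replicate 3. The means were 2.43 ± 0.32 (SD, n = 3) and 0.31 ± 0.15 (SD, n = 3), a change of 2.12 log2 (standard error 0.27) or 4.35-fold, with an adjusted P of 0.669 in limma. LOX was the named gene with the smallest adjusted P on this scale. On the spike-in scale its abundance was -0.28, -0.06 and -3.25 log2 with siALKBH5#1 and -2.38, -3.36 and -4.03 with siNC, where siALKBH5#1 replicate 3 lay among the siNC arrays. The change there was 2.06 (standard error 0.96) with an adjusted P of 1.00. Without replicate 3 of both groups the change was 2.70 on the spike-in scale, called by limma with an adjusted P of 0.000122, and 2.26 relative to the medians. Over 34 alternatives the adjusted P for LOX ran from 5.7e-11 to 1.00. Its change ran from 1.49 to 3.13 log2 over these, lowest on the spike-in scale without siALKBH5#1 replicate 2. Relative to the medians, LOX was higher by 2.0 log2 in the IP channel and by 2.19 in the Sup channel.

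COL13A1, a collagen that spans the cell membrane, had an abundance relative to the array median of 2.02, 2.03 and 0.82 log2 with siALKBH5#1 and of -0.31, -0.28 and -0.20 with siNC. The siNC arrays lay close together, and replicate 3 of siALKBH5#1 lay between them and the other siALKBH5#1 arrays. The change was 1.89 (standard error 0.38) or 3.70-fold relative to the medians and 1.83 (standard error 1.04) on the spike-in scale, with an adjusted P of 1.00 in limma on both. Without replicate 3 of both groups it was 2.32 relative to the medians and 2.76 on the spike-in scale, where limma called it with an adjusted P of 9.5e-05. Over 34 alternatives the adjusted P for COL13A1 ran from 7.1e-11 to 1.00. Its change ran from 1.18 to 3.07 log2 over these, lowest on the spike-in scale without siALKBH5#1 replicate 2. In the IP channel COL13A1 was higher by 1.82 log2 and in the Sup channel by 1.52, relative to the medians.

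MFAP5, a glycoprotein of the microfibrils that carry elastin and a member of the study's list, had an abundance relative to the array median of 0.73, 0.57 and -0.51 log2 with siALKBH5#1 and of -2.06, -1.85 and -2.16 with siNC. All 3 siALKBH5#1 arrays lay above the siNC arrays, with a change of 2.29 log2 (standard error 0.38) or 4.88-fold, and 2.61 without replicate 3 of both groups. On the spike-in scale the change was 2.23 with all 6 arrays (adjusted P 1.00 in limma) and 3.04 without replicate 3 of both groups (adjusted P 6.5e-06, with a range of 2.3e-11 to 1.00 over 35 alternatives). Over these the change ran from 1.03 to 3.46 log2, lowest with signals without background subtraction and highest without siALKBH5#1 replicate 3. The IP signal of MFAP5 was well above background on 2 siALKBH5#1 arrays and on 0 siNC arrays, while its Sup signal was so on all 6, and relative to the medians the Sup channel alone was higher by 1.68 log2.

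LOX, COL13A1 and MFAP5 were the only named genes called without replicate 3 of both groups, and also without siALKBH5#1 replicate 3, on the spike-in scale. Relative to the medians, limma called 0 named genes in both cases. Without siALKBH5#1 replicate 1, which had a scan of its own, their changes relative to the medians were 2.06, 1.69 and 2.06 log2.

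Another secreted protein, SPP1 (osteopontin, a ligand of integrins), had an abundance relative to the array median of 8.87, 9.36 and 10.53 log2 with siALKBH5#1 and of 7.72, 8.62 and 9.72 with siNC. In each group replicate 3 was highest and replicate 1 lowest, and the groups overlapped. Its change was 0.90 (standard error 0.64) relative to the medians and 0.95 without replicate 3 of both groups, but 0.43 without siALKBH5#1 replicate 3 alone and 0.42 without siNC replicate 1. In the other direction, it was 1.26 without siALKBH5#1 replicate 1 and 1.42 without siNC replicate 3. POGLUT2, which adds glucose to secreted and membrane proteins, lay at 2.54, 2.52 and 1.51 log2 with siALKBH5#1 and at 2.90, 2.83 and 2.82 with siNC. All 3 siALKBH5#1 arrays lay below the siNC arrays, by the most on replicate 3, and the change was -0.66 (standard error 0.35), or -0.33 without replicate 3 of both groups. With LOXL2, the 5 genes with an accession in this role had 3 changes above 0 and 2 below relative to the medians, with a median of 0.90 log2. Over all 45247 RNAs the median was -0.00, with 22500 above 0 and 22747 below. The grouping by role was made after the values were seen.

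SAA4, a serum amyloid A protein of plasma lipoproteins, had the lowest change of the named genes. Its abundance relative to the array median was -1.55, -1.36 and -2.39 log2 with siALKBH5#1 and -0.21, -0.50 and -0.45 with siNC. All 3 siALKBH5#1 arrays lay below the siNC arrays, and replicate 3 lowest. The means were -1.77 ± 0.55 (SD, n = 3) and -0.39 ± 0.16 (SD, n = 3), a change of -1.38 log2 (standard error 0.34), which is 2.60-fold lower, with an adjusted P of 1.00 in limma. On the spike-in scale the change was -1.44 (standard error 1.02). Without replicate 3 of both groups it was -1.10 relative to the medians and -0.66 on the spike-in scale (adjusted P 0.649, with a range of 0.136 to 1.00 over 34 alternatives), so limma called SAA4 under none of these. The change of SAA4 ran from -2.08 to -0.23 log2 over these alternatives. On the spike-in scale without siALKBH5#1 replicate 3 alone it was -0.28. Its IP signal was well above background on 0 siALKBH5#1 arrays and on all 3 siNC arrays, and its Sup signal on all 6, and relative to the medians the Sup channel alone was at -1.10 log2. SERPIND1 and CPS1, the other plasma and liver proteins, were also below 0 relative to the medians, CPS1 not without replicate 3 of both groups.

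**Figure D3:**
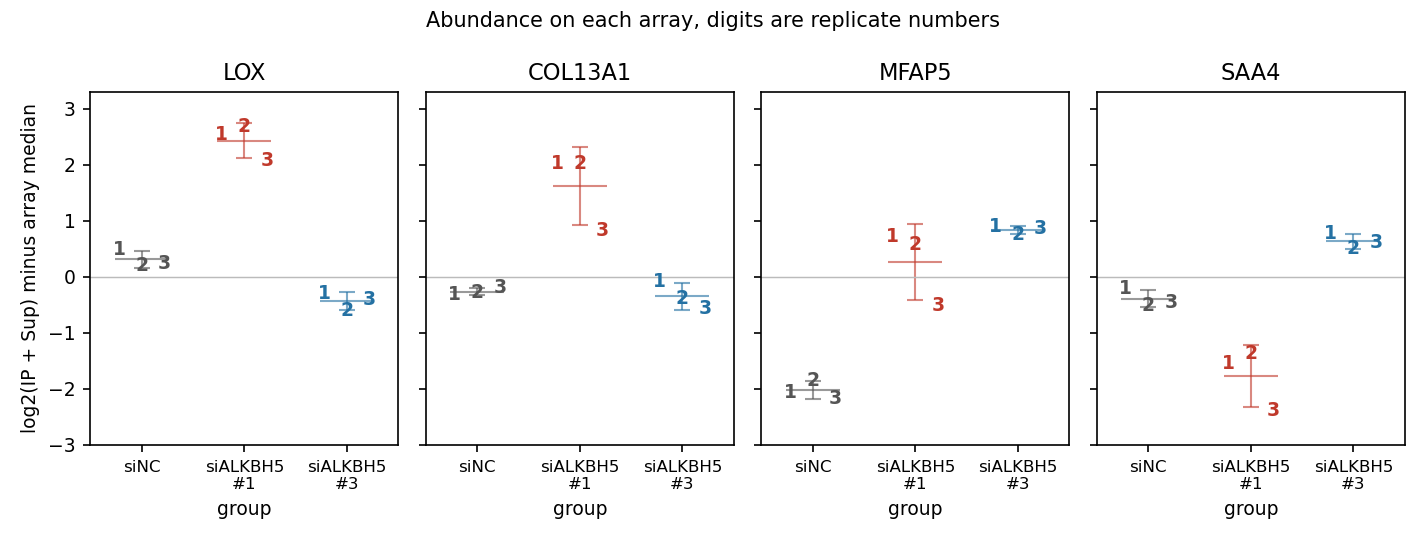
Abundance, log2(IP + Sup) minus the median of the same array, of LOX, COL13A1, MFAP5 and SAA4 on each array of the groups siNC (grey), siALKBH5#1 (red) and siALKBH5#3 (blue). Digits mark the replicate, horizontal lines the group mean and bars the SD (n = 3). LOX and COL13A1 lie high with siALKBH5#1 alone, MFAP5 lies above siNC with both siRNAs, and SAA4 lies below siNC with siALKBH5#1 and above it with siALKBH5#3.

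The siALKBH5#3 arrays give the same genes side by side. They share the siNC arrays with the comparison above, and the difference between the siRNAs was not tested. LOX lay at -0.29, -0.60 and -0.41 log2 relative to the array median on the 3 siALKBH5#3 arrays, below the siNC arrays. COL13A1 lay at -0.09, -0.38 and -0.56, a range that holds all 3 siNC values. MFAP5 lay at 0.89, 0.75 and 0.86, above the siNC arrays as it did with siALKBH5#1. SAA4 lay at 0.77, 0.52 and 0.62, above the siNC arrays and opposite to its side with siALKBH5#1. Relative to the medians, the means with siALKBH5#3 minus siNC were -0.75 for LOX, -0.08 for COL13A1, 2.86 for MFAP5 and 1.02 for SAA4.

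Genes of DNA replication and repair had 6 of 11 changes above 0 relative to the medians, with a median of 0.02 and a range of -0.42 to 0.67 log2. With replicate 3 of both groups left out, 8 were above 0 and the median was 0.25. The largest was that of CHAF1B, a subunit of the assembly factor that places histones on new DNA. Its abundance was 5.21, 5.31 and 6.64 log2 with siALKBH5#1 and 4.70, 4.68 and 5.77 with siNC, so replicate 3 was high in both groups and the groups overlapped. The change was 0.67 (standard error 0.51), and 0.57 without replicate 3 of both groups. EXO1, an exonuclease of mismatch repair and of the resection of DNA ends, lay at 4.90, 5.48 and 6.46 with siALKBH5#1 and at 4.58, 4.89 and 5.89 with siNC. It changed by 0.50 (standard error 0.52) with all 6 arrays and by 0.46 without replicate 3 of both groups. The change was 0.21 for CHAF1B and 0.074 for EXO1 without siALKBH5#1 replicate 3 alone. In this role the groups did not overlap for 1 of the 11 genes, DSCC1, which was lower, beside 5.82% of all tested RNAs.

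Genes of mitosis had 5 of 7 changes above 0 relative to the medians, with a median of 0.03 and a range of -0.58 to 0.36 log2. Leaving out replicate 3 of both groups put 4 above 0 and the median at 0.0030. The lowest was that of CENPQ, a protein of the kinetochore, at 3.08, 3.02 and 1.93 with siALKBH5#1 and 3.47, 3.37 and 2.94 with siNC. The groups overlapped there, since siNC replicate 3 lay below siALKBH5#1 replicates 1 and 2, and the change was -0.58 (standard error 0.39), or -0.37 without replicate 3 of both groups and -0.21 without that of siALKBH5#1 alone. CCNA2, the cyclin of the S and G2 phases, was chosen for description after its values were seen. It lay at 3.98, 4.05 and 6.82 with siALKBH5#1 and at 4.11, 4.12 and 5.55 with siNC, so replicate 3 stood above the rest in both groups. Its change was 0.36 (standard error 0.86) with all 6 arrays and -0.10 without replicate 3 of both groups, so its direction turned with that replicate.

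Genes of transcription and chromatin had 4 of 9 changes above 0, with a median of -0.14 and a range of -0.72 to 0.18 log2 relative to the medians. Leaving out replicate 3 of both groups put 5 above 0 and the median at 0.03. BAZ1A, a subunit of chromatin remodelling complexes, lay at 3.73, 3.80 and 1.80 with siALKBH5#1 and at 4.09, 3.75 and 3.65 with siNC. Its change of -0.72 (standard error 0.57) rested on siALKBH5#1 replicate 3 and was -0.15 without replicate 3 of both groups. LMO2, a bridging protein of transcription complexes in blood-forming cells, lay at 0.04, 0.13 and -0.86 with siALKBH5#1 and at 0.26, 0.19 and 0.39 with siNC, without overlap. Its change was -0.51 (standard error 0.33) and -0.15 without replicate 3 of both groups. On the spike-in scale it was -0.58 with all 6 arrays, but 0.29 without replicate 3 of both groups and 0.59 without that of siALKBH5#1 alone. The IP signal of LMO2 was well above background on 1 siALKBH5#1 array and on all 3 siNC arrays. POLR2A, the largest subunit of RNA polymerase II, was also chosen after its values were seen. Its abundance was 1.52, 1.21 and 4.75 with siALKBH5#1 and 1.87, 2.55 and 2.53 with siNC. Replicate 3 of siALKBH5#1 lay above all siNC arrays and replicates 1 and 2 below them, so the change was 0.18 (standard error 0.94) with all 6 arrays and -0.84 without replicate 3 of both groups.

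The 12 remaining genes with an accession, grouped as other roles, had 4 changes above 0 and 8 below, with a median of -0.11 and a range of -0.46 to 0.45 log2. With replicate 3 of both groups left out, 6 were above 0 and the median was 0.05. The extremes were MOCOS, which activates molybdenum enzymes, and PPIP5K2, a kinase that makes inositol pyrophosphates. MOCOS lay at 4.33, 4.45 and 5.43 with siALKBH5#1 and at 4.13, 4.01 and 4.72 with siNC, a change of 0.45 (standard error 0.39). PPIP5K2 lay at 4.32, 4.12 and 3.04 with siALKBH5#1 and at 4.63, 4.25 and 3.98 with siNC, a change of -0.46 (standard error 0.41), but the Sup channel alone gave 0.52 and the IP channel alone -0.80. The groups overlapped for both, and without replicate 3 of both groups the changes were 0.32 and -0.22. They were 0.10 and -0.065 without siALKBH5#1 replicate 3 alone. Over all 47 genes, limma called 0 with all 6 arrays, 22 changes were above 0 and 25 below relative to the medians, with a median of -0.02. The balance turned without replicate 3 of both groups to 28 above and 19 below, with a median of 0.11, and 33 kept their direction. The groups did not overlap for 2 higher, LOX and COL13A1, and 5 lower, SAA4, POGLUT2, LMO2, SERPIND1 and DSCC1, where 4.55% of all tested RNAs were higher and 5.82% lower without overlap.

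**Figure D4:**
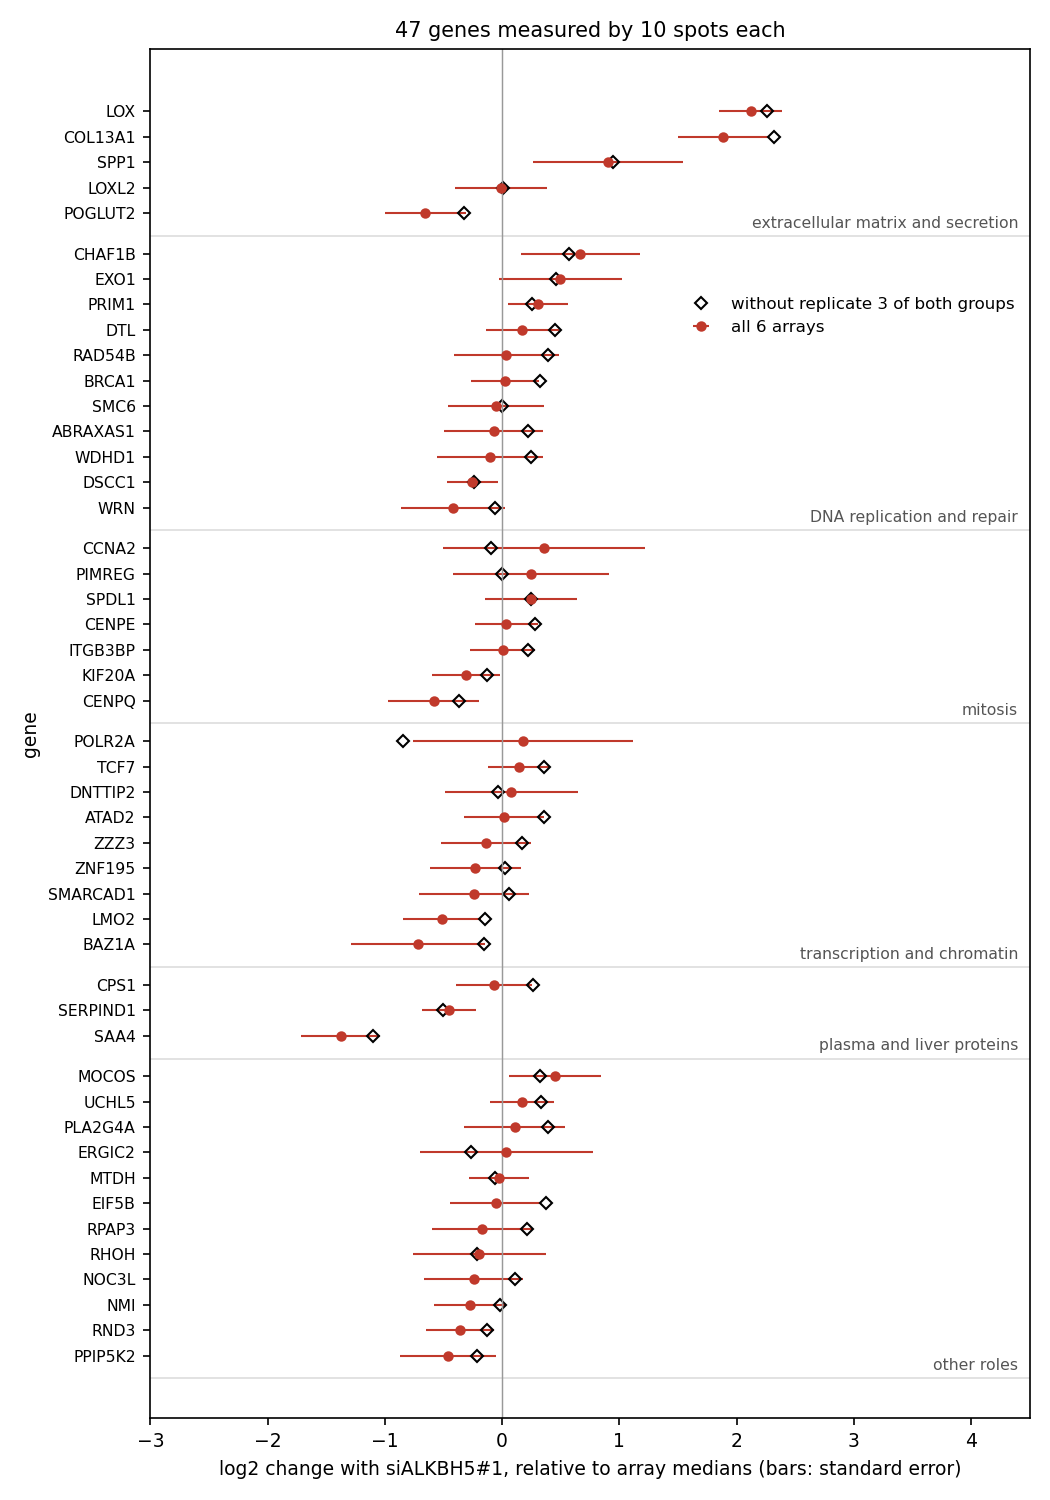
Log2 change with siALKBH5#1 (siALKBH5#1 minus siNC, relative to the array medians) of the 47 tested genes with an accession, ordered by role. Red points with bars give the change and its standard error in limma with all 6 arrays, and open diamonds the change without replicate 3 of both groups. LOX at 2.12 and COL13A1 at 1.89 lie highest and SAA4 at -1.38 lowest.

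Replicate 3 deviated in the same sense in both groups for most of these genes, as it did for most tested RNAs. The deviation of replicate 3 from the mean of replicates 1 and 2 had the same sign with siALKBH5#1 and siNC for 37 of the 47, and it exceeded 1 log2 for 26 with siALKBH5#1 and for 8 with siNC. These are 78.7%, 55.3% and 17.0% of the 47, beside 68.9%, 39.8% and 13.9% of all tested RNAs. The deviation was 2.80 with siALKBH5#1 and 1.44 with siNC for CCNA2, and 1.42 and 1.55 for SPP1. POLR2A deviated by 3.39 with siALKBH5#1 and by 0.31 with siNC. LOX and COL13A1, by contrast, deviated by less than their changes between the groups, LOX by -0.54 and -0.11 and COL13A1 by -1.20 and 0.10.

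**Figure D5:**
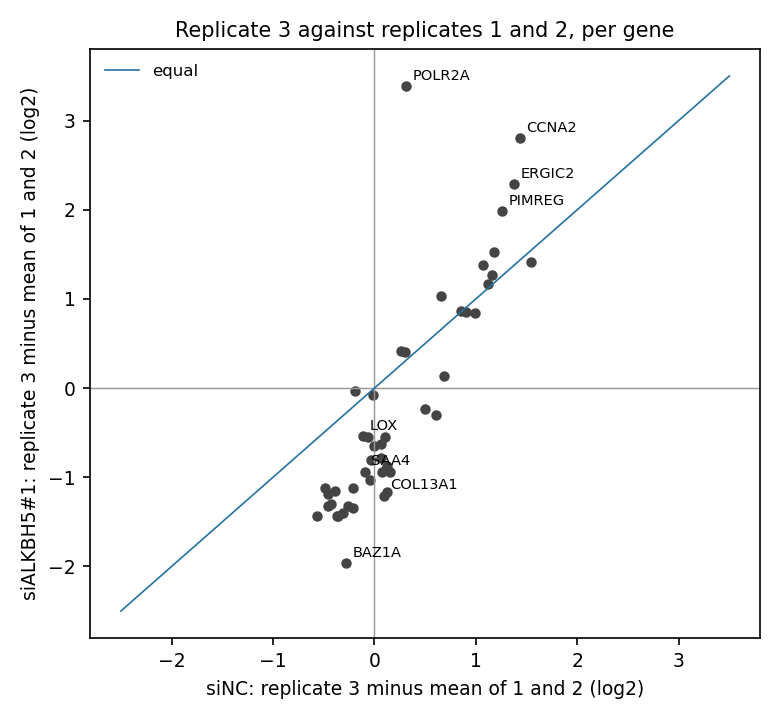
Deviation of replicate 3 from the mean of replicates 1 and 2 (log2, relative to the array medians) in siNC (x axis) and siALKBH5#1 (y axis) for the 47 tested genes with an accession. The line marks equal deviation. For 37 of 47 genes the sign is the same in both groups, and the deviation is larger with siALKBH5#1 for POLR2A and CCNA2.

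Of the 11 genes of the study's list, 10 had changes above 0 relative to the medians, with a median of 0.49 log2, against -0.00 over all RNAs, and the groups did not overlap for 3 (MFAP5, MAEA and CREB3L4), beside 4.55% of all tested RNAs. In the Sup channel alone 3 were above 0 and 8 below, MAEA and CREB3L4 among those below, and the IP signal was well above background on 0 siNC arrays for 10 of the 11. The study picked the list for its methylation on these arrays, from the same IP and Sup signals, so these counts are not independent of the choice, and limma called 0 of the 11 with all 6 arrays.

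The RNAs past the study's threshold on the spike-in scale are known only by their probe names. ASHGV4005176911 had an abundance of -2.05, -0.45 and -0.56 log2 with siALKBH5#1 and of 1.08, 1.43 and 1.83 with siNC on the spike-in scale. On that scale all 3 siALKBH5#1 arrays lay below the siNC arrays, and replicate 3 lay beside replicate 2. The change was -2.46 (standard error 0.72), which is 5.52-fold lower, with an adjusted P of 1.00 in limma. It was -2.51 without replicate 3 of both groups (adjusted P 0.000577, with a range of 1.6e-09 to 1.00 over 34 alternatives) and -2.40 (standard error 1.07) relative to the medians. Relative to the medians it was -1.49 without siALKBH5#1 replicate 1 and -3.48 without siALKBH5#1 replicate 3. There the abundance was 0.77, 2.29 and 4.77 with siALKBH5#1 and 3.95, 5.00 and 6.10 with siNC, so the groups overlapped and replicate 3 lay far from replicate 2. On the siALKBH5#3 arrays it lay at 0.83, 2.17 and 1.85 on the spike-in scale.

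ASHG19AP1B10690169411 was named after its values were seen, since its groups overlap on the spike-in scale. It lay at -1.40, -0.97 and -5.35 log2 with siALKBH5#1 and at -5.17, -7.21 and -8.18 with siNC. Replicate 3 of siALKBH5#1 lay just below siNC replicate 1 and far below the other siALKBH5#1 arrays. Both channels were well above background on all 3 siALKBH5#1 arrays and on 0 siNC arrays, so the probe was tested through the siALKBH5#1 arrays alone and no size of change is given. Relative to the medians the abundance was 1.43, 1.77 and -0.03 with siALKBH5#1 and -2.30, -3.64 and -3.91 with siNC, where the groups did not overlap. On the siALKBH5#3 arrays it was -2.73, -2.21 and -1.69.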

How the data were processed

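Total RNA of 9 PC9 samples had been measured on 2-colour Arraystar epitranscriptomic arrays. Per the file headers, the deposited scanner files give background-subtracted signal intensity per spot from Agilent Feature Extraction 11.0.1.1, not scaled between arrays, and other columns of flags (0 or 1) for background and spot quality. The authors' deposited methylation fraction, IP over the sum, was used only to match 11 probes to names. From rBGSubSignal (IP) and gBGSubSignal (Sup), each channel was divided by its spike-in mean, negative signals were set to 0 and the channels were summed. Sums were floored per array at the lowest sum with Sup well above background, and log2 values of a probe's unmarked spots were averaged. RNA probes were kept with Sup well above background on all 3 arrays of either group. limma 3.58.1 in R 4.3.3 (lmFit and eBayes, no covariates) compared 3 siALKBH5#1 with 3 siNC arrays. Benjamini-Hochberg adjustment was over 45247 RNAs, with a threshold of 0.05. The fit was also run on simulated data with independent noise for each RNA. These held no array that deviates RNA by RNA as siALKBH5#1 replicate 3 did, so they do not cover that case. Tables and figures used Python 3.11.15 with pandas 2.3.3, scipy 1.17.1 and matplotlib 3.10.9. Accessions were matched to symbols in the RefSeq annotation of GRCh38.p14.

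Named genes were: up to 10 each way by size among RNAs called or, where too few, past the study's threshold, without overlap and with the same direction without replicate 3; members of the gene lists; up to 6 each way among probes with an accession; and up to 2 unnamed probes each way. The 18 lists cover m6A erasers, the methyltransferase complex and readers, proliferation, p53 targets, G1/S and replication, G2/M, apoptosis, the unfolded protein response, interferon response, extracellular matrix, glycolysis and hypoxia, ribosomal proteins, epithelium, fibroblast, leukocyte, endothelium and housekeeping, and only G2/M and extracellular matrix hold a named gene. Members and lists were chosen with earlier results of these data known. Alternatives varied scaling, signal column, channel, filter, test, threshold, array weights, replicate block and arrays left out. Those centred on array medians, other than centring alone, the channel-median scaling, and the study's threshold combined with another change were added after seeing the data.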

Additional observations from a re-analysis of the deposited data

How the results depend on the processing

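The median change ran from -0.51 to 0.79 log2 over the alternatives, and both ends came from leaving out 1 array. The pooled SD of the single array medians was 1.15 with siALKBH5#1 replicate 3 included, which is a spread of arrays and not of the change. Without that array the SD of the siALKBH5#1 medians was 0.058 (n = 2). Centring and quantile normalization set the median change to 0 by construction. The 3-group model and the spike-in probes of the 6 arrays, which are the same 13, could not move it. The counts of RNAs called higher and lower were both 0 in 30 of 53 alternatives, among them no spike-in scaling, quantile normalization, either channel alone, other signal columns and filters, and centring on the array medians.

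The counts differed from 0 in the others. The study's threshold in limma gave 1 higher and 1 lower, and the study's own test at that threshold 71 and 11. Leaving out 1 array gave 0 to 216 higher, 0 to 73 lower and 0 to 3 named genes called, the highest without siALKBH5#1 replicate 3. Leaving out replicate 3 of both groups gave 219 higher, 110 lower and 3 named genes. With a block for replicate number the counts were 6 and 5. The deviations of arrays of the same number correlated at 0.62, -0.05 and 0.66 for replicates 1, 2 and 3. Those of siALKBH5#1 replicate 2 and siNC replicate 1 correlated at 0.56. Arrays of the same number thus went together for replicates 1 and 3 but not for replicate 2. The block fit used the same standard error for each RNA. Array weights, which put 0.0444 on siALKBH5#1 replicate 3 and 18.3 on siNC replicate 2, gave 24632 higher, 2672 lower and 48 named genes. On the siNC side this fit rests almost wholly on that array.

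Alternatives chosen after seeing the data, centred on the array medians, gave 143 higher, 211 lower and 4 named genes at the study's threshold in limma, 196, 264 and 3 with the study's own test at that threshold, and 13, 8 and 3 with array weights. Also chosen after seeing the data, the study's threshold without replicate 3 of both groups gave 1214 higher, 379 lower and 6 named genes on the spike-in scale and 415, 730 and 5 relative to the medians. Without siALKBH5#1 replicate 3 it gave 1822, 261 and 6 on the spike-in scale. At the study's threshold and relative to the medians, the counts of higher RNAs, lower RNAs and named genes were 137, 152 and 4 among RNAs with Sup above background on all 6 arrays, 271, 104 and 4 in the Sup channel alone, 33, 127 and 2 in the IP channel alone and 174, 146 and 4 with no spike-in scaling. Quantile normalization gave 254, 198 and 5. Leaving out siALKBH5#1 replicate 1, 2 or 3 relative to the medians gave 97, 70 and 527 higher, 248, 134 and 1079 lower and 3, 4 and 5 named genes. Leaving out siNC replicate 1, 2 or 3 gave 49, 41 and 69 higher, 59, 62 and 93 lower and 2, 2 and 3 named genes. The causes of these differences were not tested, apart from the looser thresholds.

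LOX, COL13A1, MFAP5, SPP1, CHAF1B, EXO1, MOCOS, SAA4 and the probe ASHGV4005176911 kept their direction in every alternative run. They were named for the size of their change on these same arrays, which the alternatives use again, so this is in part built in. The lowest changes were 0.058 log2 for EXO1, 0.088 for MOCOS and 0.21 for CHAF1B. The other probe given by name was tested through the siALKBH5#1 arrays alone, which fixes its direction. Genes that were not called with all 6 arrays changed sign as follows. Array weights gave 0.74 for BAZ1A, 0.62 for LMO2 and 0.75 for PPIP5K2, which were called in that opposite direction, and 0.46 for POGLUT2, 0.45 for CENPQ and -0.34 for POLR2A, which were not called. Leaving out replicate 3 of both groups gave 0.28 for BAZ1A, 0.11 for POGLUT2, 0.066 for CENPQ, 0.29 for LMO2, 0.22 for PPIP5K2 and -0.41 for POLR2A on the spike-in scale. Relative to the medians it gave -0.84 for POLR2A and -0.10 for CCNA2. The Sup channel alone gave 0.31 for PPIP5K2, and 0.52 relative to the medians. POLR2A was -0.19 after quantile normalization and -0.96 with array weights relative to the medians, where CCNA2 was -0.20. Leaving out 1 array at a time on the spike-in scale gave a range of -1.57 to 0.72 for BAZ1A, -1.33 to 0.47 for POGLUT2, -1.26 to 0.58 for CENPQ, -1.20 to 0.59 for LMO2, -1.17 to 0.72 for PPIP5K2 and -0.16 to 0.32 for POLR2A. Relative to the medians, POLR2A was -0.95 without siALKBH5#1 replicate 3 and -0.044 without siNC replicate 1, and CCNA2 was -0.58 without siALKBH5#1 replicate 3. The cause was not tested.

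Signal over background limits the sums: Sup was above background for 67.3% to 86.6% of RNA spots and IP for 37.9% to 50.9% on the 6 arrays, so for many RNAs the IP part was not above background. With 3 arrays a group, a single deviating array bore on the standard error, and probes without names leave most RNAs unidentified. The siRNA target itself could not be followed, and other effects of the siRNA sequence cannot be told apart from loss of ALKBH5.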
